A study of Mus musculus with 9 samples.

Results

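The comparison covered 6 of the 9 libraries of the series, the 3 libraries labelled as 24 h of differentiation against the 3 labelled as spermatogonial stem cells (SSCs) at 0 h, which were chosen by their labels. The cells at both times were EGFP-SSCs, 1 mouse line of wild-type genotype that carries EGFP, so the replicates are cultures of 1 line. At 0 h the line was in its maintenance culture, on mitomycin C-treated mouse embryonic fibroblasts in a StemPro-based medium with insulin, glucose, pyruvate, lactate, EGF, basic FGF, GDNF and a little serum. For differentiation the SSCs were mixed with an equal number of testicular somatic cells from busulfan-treated pups and moved to α-MEM with knockout serum replacement, BMP4, BMP7, retinoic acid, activin A, testosterone, FSH and bovine pituitary extract. Per the study, cells of each stage were flow sorted for sequencing. Time, medium, growth factors and companion cells therefore changed together and cannot be told apart. In bulk RNA, fewer cells of a type and less RNA per cell cannot be told apart either.

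SSCs renew the germ line under GDNF and FGF from neighbouring somatic cells, and retinoic acid moves their progeny towards meiosis. The genes of that switch are well described, and the values below concern what else the cells expressed: the enzymes that burn sugar and build lipid, the translation machinery, innate immune genes, signalling pathways, surface and matrix proteins, and chromatin regulators. Glycolysis turns glucose into pyruvate and lactate. The sterol pathway builds cholesterol from acetyl-CoA under the transcription factor SREBP2, which the escort protein SCAP carries to the Golgi when membrane cholesterol is low.

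The 6 libraries held 16825251 to 21392053 counts each, and 17592 genes passed the filter on low counts. Of these, 4494 passed the threshold (25.5%; edgeR quasi-likelihood test with Benjamini-Hochberg adjustment, adjusted p up to 0.05), 2002 higher at 24 h (11.4%) and 2492 lower (14.2%). Among them 2326 differed by at least 2-fold, 982 higher and 1344 lower. The median log2 fold change over all genes tested was 0.01. The libraries of the 2 groups did not overlap for 7637 of the 17592 genes. Scaling by library size alone in place of trimmed means moved the log2 fold changes by a median of 0.11 and turned the split to 2742 higher and 2060 lower. Pairs of replicates stood further apart at 0 h than at 24 h: chi-square over genes, divided by its degrees of freedom, was 35.5 to 81.4 against 7.97 to 13.4. Levels below are CPM, read counts scaled to a library total of 1000000, with the replicates in the order 1, 2 and 3, and a share of members called is to be read against those percentages.

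The label of germ cells was checked first. All 6 germ cell markers were read in every library, and their sum was 1772 to 2827 CPM at 0 h and 2361 to 2515 CPM at 24 h, so the groups overlapped. Ddx4, a germ cell RNA helicase, was at 459, 389 and 209.8 CPM at 0 h and 332, 363 and 377 CPM at 24 h (log2 fold change 0.02 ± 0.26 SE, edgeR adjusted p = 0.971). Dazl, a germ cell RNA-binding protein, was at 1344, 813 and 414 CPM at 0 h and 602, 812 and 757 CPM at 24 h (log2 fold change -0.24 ± 0.38 SE, edgeR adjusted p = 0.698). Both spread more at 0 h than at 24 h, with 0 h replicate 3 the lowest. Mael and Tdrd1, of the transposon-silencing machinery, had log2 fold changes of 0.11 and 0.11 and did not pass the test. Of the 6 markers 1 was called higher and none lower. That was Piwil2, which went from 514 to 813 CPM (log2 fold change 0.66 ± 0.11 SE, edgeR adjusted p = 0.0039).

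Sums of Sertoli, peritubular myoid, Leydig and stromal markers were higher at 24 h than at 0 h. The 6 peritubular myoid markers summed to 13.4 to 15.4 CPM at 0 h and 148 to 204 CPM at 24 h, with 5 of the 6 higher. The 6 Sertoli cell markers went from 19.6 to 23.9 CPM to between 57.2 and 91.8 CPM, with 5 higher (Amh, Wt1, Gata4, Clu and Cldn11) and Sox9 lower (not called without 24 h replicate 1 or 2, with adjusted p from 0.0714 to 0.0773). Of the 6 Leydig cell markers, 3 were tested and 2 were higher. The 9 stromal and fibroblast markers, which feeder cells share, rose in sum from 278 to 380.0 CPM to between 2158 and 2446 CPM, with 6 higher and Twist1 lower. Most of that sum was Col1a1, Col1a2 and Col3a1, at means of 155, 78.3 and 33.6 CPM at 0 h and 1106, 692 and 352 CPM at 24 h. Each other member had a mean of 44.4 CPM or less at 24 h. The endothelial and macrophage lists went the other way in sum, at 42.5 to 46.9 against 14.9 to 19.5 CPM and at 15.3 to 18.2 against 6.19 to 10.1 CPM, through Kdr, Pecam1 and Cd68, which were lower. Members of low level were called in the other direction: Tie1, Tek and Csf1r were higher, from 0.209 to 0.670 CPM, 1.40 to 3.47 CPM and 0.291 to 1.07 CPM (log2 fold changes 1.64, 1.31 and 1.90), so the calls were 2 higher and 2 lower for endothelial and 1 each way for macrophage markers. Tie1 was not called without 0 h replicate 1 or 2 or 24 h replicate 1, 2 or 3, with adjusted p from 0.066 to 0.117, Tek was not called without 0 h replicate 2 or 24 h replicate 2, with adjusted p from 0.0635 to 0.0691 and Csf1r was not called without 0 h replicate 2 or 3 or 24 h replicate 1 or 3, with adjusted p from 0.0555 to 0.13. The Leydig gene Hsd3b1 had no count in any 0 h library and the macrophage gene C1qa none there either. Groups of genes below that these somatic cells also express moved with these markers, and the part of the markers in those results was not tested.

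**Figure D1:**
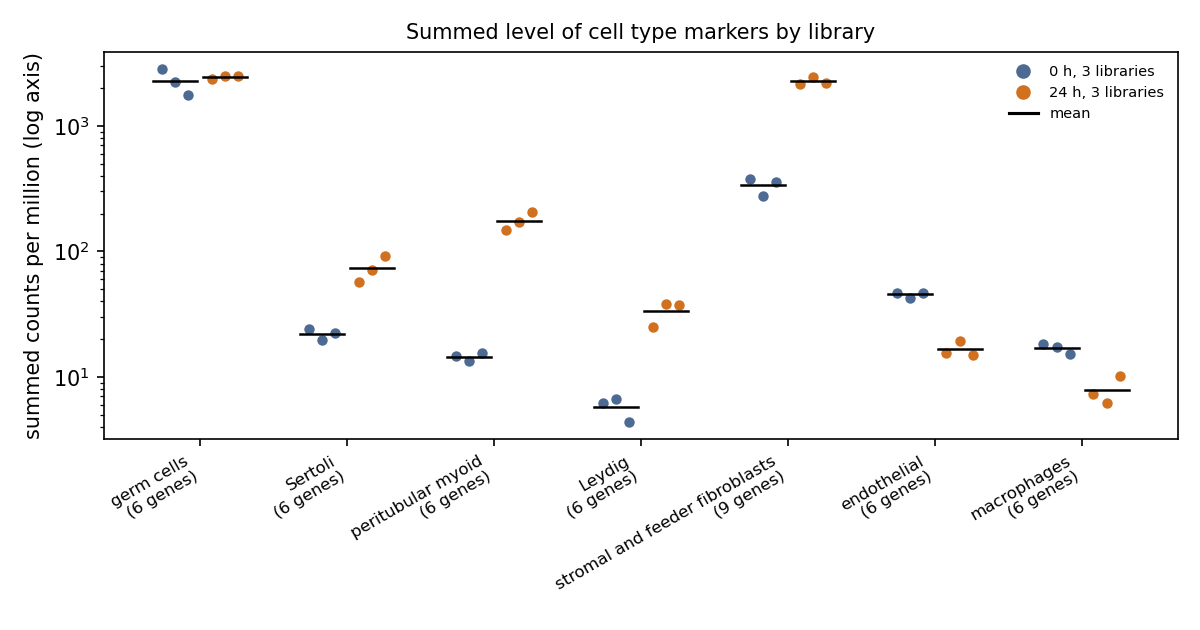
Summed level of cell type markers in each library, in CPM on a log axis, with 3 points per group and a line at the mean. The germ cell sums overlap between 0 h and 24 h, while the Sertoli, peritubular myoid, Leydig and stromal sums at 24 h all lie above those at 0 h and the endothelial and macrophage sums lie below.

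The gene lists differed widely in how many members passed the test. The plot of list shares shows the glycolysis and cholesterol lists almost wholly on the lower side and the interferon and collagen lists mostly on the higher side, while lists such as mitosis and ribosome biogenesis had fewer calls than genes at large.

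**Figure D2:**
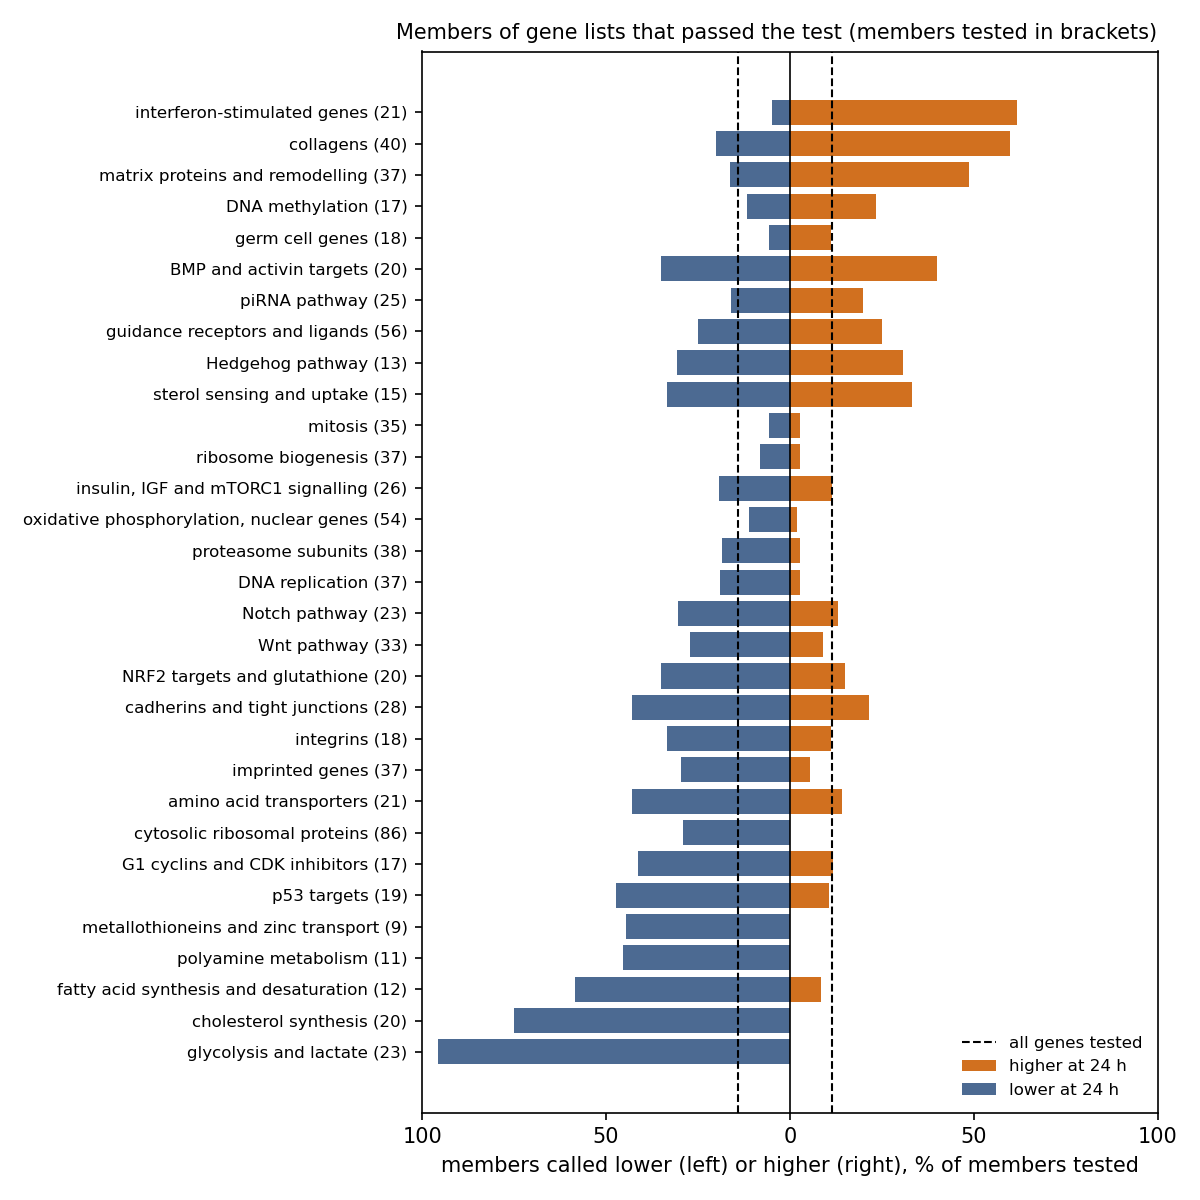
Share of the tested members of each gene list called higher (right) or lower (left) at 24 h, in % of members tested, with dashed lines at the shares over all genes tested (11.4% and 14.2%). Glycolysis has 22 of 23 members on the lower side and the interferon list 13 of 21 on the higher side.

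Genes of glucose uptake and glycolysis fell together. Of the 23 members tested, 22 were lower at 24 h, none was higher, and the median log2 fold change was -1.09. Their summed level went from 9745, 10970.5 and 13348 CPM at 0 h to 4606, 4599.7 and 5371 CPM at 24 h. Leaving out any 1 library left 16 to 23 members lower and none higher. No other list had as large a share of its members called.

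At the membrane, the glucose transporter gene Slc2a3 (chr6:122727809-122801640, GRCm38) was at 439.5, 474 and 541 CPM at 0 h and 61.8, 67.1 and 65.1 CPM at 24 h. The level at 24 h was 7.49-fold lower with no overlap between groups (log2 fold change -2.91 ± 0.12 SE, edgeR adjusted p = 1.6e-05). Slc2a1, the more widely expressed glucose transporter, was at 392, 409 and 504 CPM at 0 h and 124, 129.7 and 149 CPM at 24 h (log2 fold change -1.69 ± 0.14 SE, edgeR adjusted p = 0.00018). Hexokinase 2 (Hk2), which traps glucose as its phosphate, went from 386 to 191 CPM (log2 fold change -1.02 ± 0.12 SE, edgeR adjusted p = 0.00089). Pfkp, the platelet-type phosphofructokinase at the committed step, had the largest fall of the list. It stood at 405, 412 and 386 CPM at 0 h and 48.04, 48.9 and 53.4 CPM at 24 h, 8.001-fold lower at 24 h (log2 fold change -3.00 ± 0.10 SE, edgeR adjusted p = 8.4e-06).

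Lower down the pathway, Pkm, pyruvate kinase, lost the most CPM of any gene chosen by the named-gene rule. Its level was 1812, 2248 and 2939 CPM at 0 h and 784, 734 and 929 CPM at 24 h (log2 fold change -1.52 ± 0.20 SE, edgeR adjusted p = 0.0015). The aldolase gene Aldoa was at 1270.5, 1636 and 1989 CPM at 0 h and 486, 514 and 581 CPM at 24 h (log2 fold change -1.63 ± 0.18 SE, edgeR adjusted p = 0.00068). Eno1, an enolase, was at 1424, 1373 and 1777 CPM at 0 h and 653, 639.6 and 775 CPM at 24 h (log2 fold change -1.15 ± 0.15 SE, edgeR adjusted p = 0.0013). Non-overlap between groups was a condition of the rule that chose these genes. Gpi1, Tpi1, Gapdh, Pgk1 and Pgam1 had log2 fold changes of -0.61, -0.96, -0.58, -0.67 and -0.68, and Gapdh and Pgk1 no longer passed when libraries were scaled by size alone. Of these Pgam1 kept its call without any 1 library. Gpi1 was not called without 0 h replicate 2 or 24 h replicate 1 or 2, with adjusted p from 0.0575 to 0.0846. Tpi1 was not called without 24 h replicate 1 or 2, with adjusted p from 0.0677 to 0.0687. Gapdh was not called without 0 h replicate 2 or 24 h replicate 1, 2 or 3, with adjusted p from 0.0543 to 0.15, and Pgk1 was not called without 0 h replicate 2 or 3 or 24 h replicate 1 or 2, with adjusted p from 0.0586 to 0.124. Reads of several of these genes can be divided with near-identical copies, so their values are uncertain. The share of 75-base windows found in another gene's transcripts was 84.8% for Eno1, 67.6% for Pgk1, 58.9% for Pkm, 40.6% for Pgam1, 30.5% for Aldoa, 25.6% for Gapdh and 24% for Gpi1, against 2.02% for Slc2a3.

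At the branch between lactate and the mitochondrion, Ldha, which makes lactate from pyruvate, was at 400.4, 437 and 542 CPM at 0 h and 149, 159 and 232 CPM at 24 h (log2 fold change -1.35 ± 0.20 SE, edgeR adjusted p = 0.0027), with 41.4% of its windows shared. Pdk1, the kinase that holds pyruvate dehydrogenase back, was at 199, 168 and 148 CPM at 0 h and 52.7, 52.3 and 55.3 CPM at 24 h (log2 fold change -1.68 ± 0.13 SE, edgeR adjusted p = 0.00015). The lactate exporter Slc16a3 was the member that did not pass, at 71.4, 133 and 152 CPM at 0 h and 60.8, 67.2 and 88.9 CPM at 24 h (log2 fold change -0.72 ± 0.28 SE, edgeR adjusted p = 0.108), and its groups overlapped. On the oxidative side, of 54 nuclear genes of oxidative phosphorylation 6 were lower and 1 higher (0 to 4 with 1 library left out; 4 without 0 h replicate 3), a smaller share than over all genes tested, with a median log2 fold change of -0.09, and the count of lower genes was 2 without 0 h replicate 2 or 24 h replicate 1, 3 without 0 h replicate 3, 1 without 24 h replicate 2 and 9 without 0 h replicate 1. Of the 13 protein genes of the mitochondrial genome 1 was lower.

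**Figure D3:**
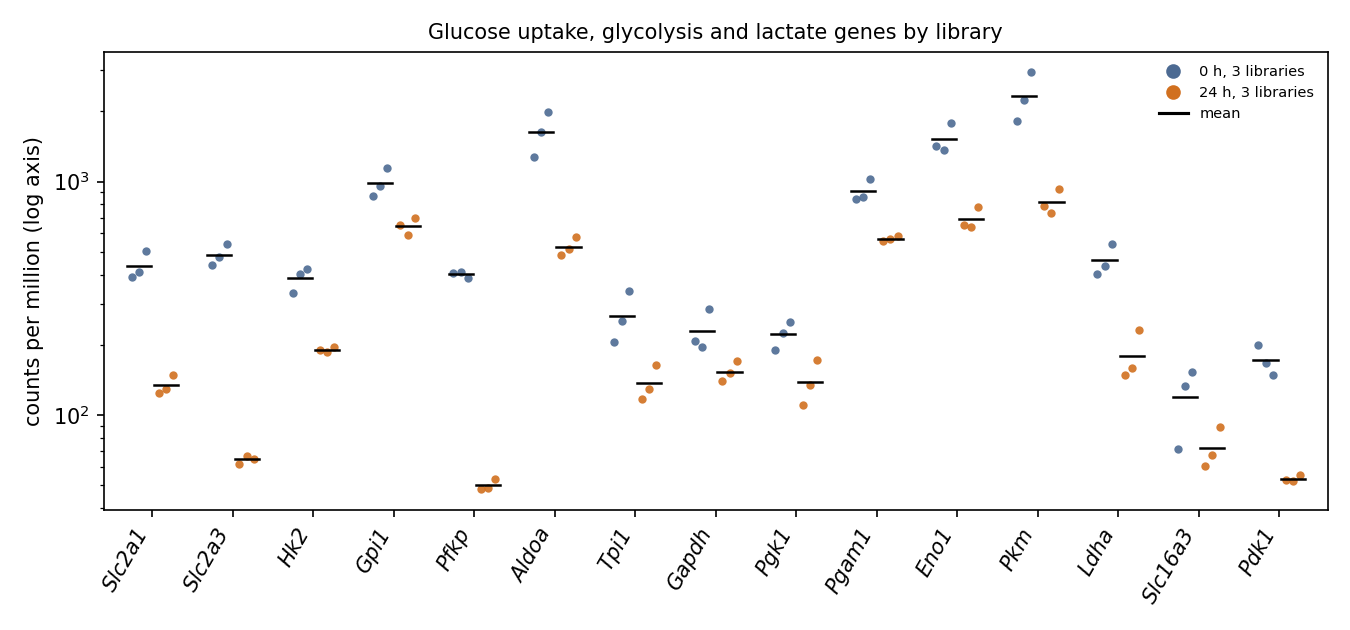
Level of 15 genes of glucose uptake, glycolysis and lactate in each library, in CPM on a log axis, with 3 points per group and a line at the mean. The 24 h points lie below the 0 h points for 14 of the genes, and Slc16a3 overlaps.

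Cholesterol synthesis genes fell together. All 20 tested members had a negative log2 fold change, 15 passed the test, and the median was -1.16. Leaving out 1 library left 12 to 15 lower. Hmgcs1, which makes HMG-CoA, was at 442, 382 and 313 CPM at 0 h and 128, 128 and 129 CPM at 24 h (log2 fold change -1.56 ± 0.14 SE, edgeR adjusted p = 0.00027). Its 24 h values lay within a few CPM of each other and below every 0 h value. The sterol demethylase Cyp51 fell 4.06-fold and Msmo1, the methylsterol oxidase, 4.44-fold, from 109 to 24.6 CPM. Idi1, isopentenyl isomerase, fell 3.89-fold but varied more than the others at 0 h, at 327, 228 and 141 CPM at 0 h and 50.7, 60.4 and 68.1 CPM at 24 h, and 30.3% of its windows are shared. Squalene epoxidase (Sqle) went from 197 to 70.2 CPM (log2 fold change -1.49 ± 0.10 SE, edgeR adjusted p = 7e-05).

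Sterol sensing and uptake split in direction, with 5 of 15 members lower and 5 higher. Srebf2, which encodes SREBP2, was at 835, 875 and 1139.7 CPM at 0 h and 373, 345 and 349 CPM at 24 h (log2 fold change -1.42 ± 0.14 SE, edgeR adjusted p = 0.00047). Insig1, which retains it, fell from 351 to 146 CPM (log2 fold change -1.27). In the other direction, Scap was at 103, 115 and 144 CPM at 0 h and 238, 215 and 220.1 CPM at 24 h (log2 fold change 0.89 ± 0.14 SE, edgeR adjusted p = 0.0035). Abca1, the cholesterol exporter, was at 56.9, 49.6 and 23.6 CPM at 0 h and 92.1, 89.4 and 79.99 CPM at 24 h (log2 fold change 1.01 ± 0.30 SE, edgeR adjusted p = 0.043), and Nr1h2, the sterol receptor LXR beta, went from 64.1 to 96.9 CPM (log2 fold change 0.60 ± 0.16 SE, edgeR adjusted p = 0.032). Abca1 was not called without 0 h replicate 2 or 24 h replicate 1, 2 or 3, with adjusted p from 0.0695 to 0.129, and Nr1h2 was not called without 0 h replicate 2 or 24 h replicate 1, 2 or 3, with adjusted p from 0.0891 to 0.115. The count of members higher was 1 without 0 h replicate 2, 24 h replicate 1 or 24 h replicate 3, and 2 without 24 h replicate 2 or under the replicate block. The count lower was 3 without 0 h replicate 2 or any 1 of the 24 h libraries and under the replicate block.

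In fatty acid synthesis 7 of 12 members were lower and 1 higher (2 higher without 0 h replicate 1, 3 without 0 h replicate 3, and none without 0 h replicate 2 or 24 h replicate 2 or 3). The stearoyl-CoA desaturases, which make monounsaturated fatty acids, fell most: Scd1 was at 111, 102 and 103 CPM at 0 h and 18.4, 22.6 and 21.3 CPM at 24 h (log2 fold change -2.34 ± 0.12 SE, edgeR adjusted p = 3e-05) and Scd2 at 437, 445 and 472 CPM at 0 h and 98.6, 113 and 124 CPM at 24 h (log2 fold change -2.02 ± 0.12 SE, edgeR adjusted p = 4.6e-05). The elongase Elovl6 was lower (log2 fold change -1.16 ± 0.27 SE, edgeR adjusted p = 0.018), though it was not called without 0 h replicate 2 or 24 h replicate 1, 2 or 3, with adjusted p from 0.057 to 0.0785. Fatty acid synthase (Fasn) itself was at 628, 694 and 785 CPM at 0 h and 793, 709 and 633 CPM at 24 h (log2 fold change 0.02 ± 0.13 SE, edgeR adjusted p = 0.943), and the groups overlapped. Malic enzyme 1 (Me1), a source of NADPH, was higher, from 47.3 to 83.4 CPM (log2 fold change 0.82 ± 0.18 SE, edgeR adjusted p = 0.013), with 51.9% of its windows shared, and it was not called without 0 h replicate 2 or 24 h replicate 2 or 3, with adjusted p from 0.0545 to 0.0596. RefSeq promoter windows, 250 bases before to 50 after the start, were searched for the sterol regulatory element TCACNCCAC on either strand. It was found in 1 of the 26 genes of both sterol lists that had a window, Hmgcs1. It was present for 1.44% of the 12007 tested genes with a window and in 1.24% of all 32851 windows. The motifs searched here and below were chosen after the expression values were seen.

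**Figure D4:**
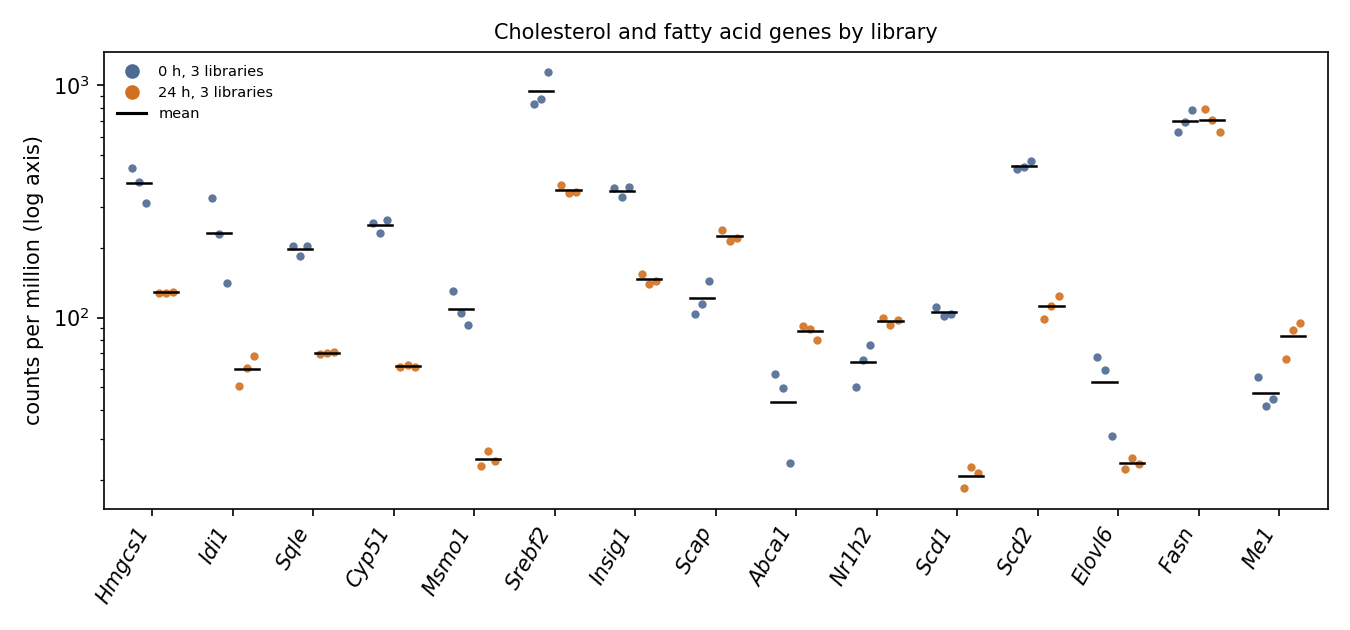
Level of 15 genes of cholesterol and fatty acid metabolism in each library, in CPM on a log axis, with 3 points per group and a line at the mean. Cholesterol enzymes, Srebf2, Insig1, Scd1, Scd2 and Elovl6 lie lower at 24 h, Scap, Abca1, Nr1h2 and Me1 lie higher, and Fasn overlaps.

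The translation machinery shifted modestly. Of 86 cytosolic ribosomal protein genes 84 had a negative log2 fold change and 25 passed as lower, none as higher (2 higher without 0 h replicate 3), with a median of -0.45. That count depended on single libraries: it was 64 without 0 h replicate 1, 13 without 0 h replicate 2, 8 without 24 h replicate 1 and 9 without 24 h replicate 2, and 15 when scaled by library size alone. Rpl4, of the large subunit, was at 2626, 2784 and 3117 CPM at 0 h and 1749, 1754 and 1949.6 CPM at 24 h (log2 fold change -0.65 ± 0.12 SE, edgeR adjusted p = 0.0074), and Rpsa, of the small subunit, at 2112, 1795 and 2244 CPM at 0 h and 1373, 1252 and 1600.3 CPM at 24 h (log2 fold change -0.54 ± 0.14 SE, edgeR adjusted p = 0.029). Ribosomal protein genes have many processed copies, and 49.2% and 44% of the windows of these genes are shared, so their values are uncertain. Rpsa was not called without 24 h replicate 1 or 2, with adjusted p from 0.112 to 0.13, and did not pass when scaled by library size alone. Pabpc1, which binds the poly(A) tail of messages, went from 2009 to 1512 CPM (log2 fold change -0.41 ± 0.12 SE, edgeR adjusted p = 0.046), and was not called without 0 h replicate 1 or 2 or 24 h replicate 1, 2 or 3, with adjusted p from 0.0678 to 0.146. Ribosome biogenesis factors stayed at 3 lower and 1 higher of 37, with 0 to 5 lower and 1 to 4 higher when 1 library was left out, and mitochondrial ribosomal proteins at 5 lower (9 without 0 h replicate 1, 3 without 24 h replicate 1) and 1 higher (10 without 0 h replicate 3) of 76.

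Of 26 insulin, IGF and mTORC1 genes 5 were lower (3 without 0 h replicate 2 or any 1 of the 24 h libraries) and 3 higher (5 without 0 h replicate 3, 8 with GC and length offsets), shares near those of all genes tested. Mtor, the kinase of the nutrient-sensing complexes, was among the 8 genes that gained the most CPM under the named-gene rule. It was at 274, 271 and 287 CPM at 0 h and 660.3, 609 and 573 CPM at 24 h (log2 fold change 1.15 ± 0.10 SE, edgeR adjusted p = 0.00027). Akt1, a kinase downstream of insulin, was at 78.1, 83.5 and 113 CPM at 0 h and 182, 170.1 and 176 CPM at 24 h (log2 fold change 0.94 ± 0.15 SE, edgeR adjusted p = 0.004). Irs2, the insulin receptor substrate, was lower in every 24 h library, at 44.9, 48.5 and 46.6 CPM at 0 h and 15.4, 15.4 and 13.02 CPM at 24 h (log2 fold change -1.67 ± 0.12 SE, edgeR adjusted p = 0.00011). The IGF1 receptor gene Igf1r went from 196 to 115 CPM (log2 fold change -0.78 ± 0.12 SE, edgeR adjusted p = 0.0032). Among MYC network genes Mycn was lower, from 97.1 to 61.02 CPM (log2 fold change -0.67 ± 0.15 SE, edgeR adjusted p = 0.017; not called without 0 h replicate 2 or 24 h replicate 1, 2 or 3, with adjusted p from 0.064 to 0.0821), and the MYC antagonist Mxd4 higher, from 60.02 to 121 CPM (log2 fold change 1.02 ± 0.12 SE, edgeR adjusted p = 0.0011).

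Of 21 amino acid transporter genes 9 were lower and 3 higher (1 higher without 0 h replicate 2 or any 1 of the 24 h libraries). Slc38a1, a glutamine carrier, was at 197, 184 and 183 CPM at 0 h and 28.4, 26.2 and 25.2 CPM at 24 h, 7.06-fold lower (log2 fold change -2.82 ± 0.11 SE, edgeR adjusted p = 1.5e-05). Slc38a4, of the same family, went from 135 to 32.4 CPM (log2 fold change -2.06 ± 0.11 SE, edgeR adjusted p = 3e-05). The leucine carrier Slc7a5 was at 812, 772 and 974 CPM at 0 h and 495, 478 and 450.3 CPM at 24 h (log2 fold change -0.85 ± 0.12 SE, edgeR adjusted p = 0.0024), and the arginine carrier Slc7a2 rose, from 29.01 to 72.2 CPM (log2 fold change 1.32 ± 0.20 SE, edgeR adjusted p = 0.003). Slc15a1, the intestinal type peptide transporter, was at 14.1, 12.5 and 12.1 CPM at 0 h and 0.248, 0.423 and 0.288 CPM at 24 h (log2 fold change -5.31 ± 0.25 SE, edgeR adjusted p = 2e-05). It was among the 12 largest falls under the named-gene rule. In polyamine metabolism 5 of 11 genes were lower and none higher (2 lower without 0 h replicate 2 or any 1 of the 24 h libraries), with Smox, spermine oxidase, at 46.3, 57.1 and 67.9 CPM at 0 h and 13.7, 13.9 and 13.7 CPM at 24 h (log2 fold change -2.05 ± 0.16 SE, edgeR adjusted p = 0.00015) and Sat1, which acetylates polyamines, going from 24.6 to 11.03 CPM (log2 fold change -1.16 ± 0.12 SE, edgeR adjusted p = 0.00049).

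Metal and redox genes fell in part. Metallothioneins bind zinc and copper and rise with the metal. Mt1 was at 339.6, 436 and 339 CPM at 0 h and 69.3, 87.2 and 75.8 CPM at 24 h (log2 fold change -2.26 ± 0.15 SE, edgeR adjusted p = 7.3e-05), and Mt2 at 276, 428 and 308 CPM at 0 h and 59.5, 86.3 and 88.7 CPM at 24 h (log2 fold change -2.11 ± 0.22 SE, edgeR adjusted p = 0.00055), though 73.5% of the exonic length of Mt2 overlaps Gm45774 and reads of the pair cannot be told apart. The transporter gene Slc30a10 went from 26.05 to 7.36 CPM (log2 fold change -1.82 ± 0.19 SE, edgeR adjusted p = 0.0006). In the list of metallothionein and zinc transport genes 4 of 9 were lower and none higher. Of 20 NRF2 targets and glutathione genes 7 were lower (4 without 24 h replicate 1 or 2) and 3 higher (none without 0 h replicate 2 or 24 h replicate 3, 1 without 24 h replicate 1 or 2, and 5 without 0 h replicate 3). Gsta4, a glutathione transferase for lipid aldehydes, was at 85.96, 89.99 and 106 CPM at 0 h and 17.4, 14.8 and 19.7 CPM at 24 h (log2 fold change -2.44 ± 0.15 SE, edgeR adjusted p = 6.1e-05). Txnrd1, thioredoxin reductase, went from 321 to 163 CPM (log2 fold change -0.97 ± 0.10 SE, edgeR adjusted p = 0.00059), and Prdx1, a peroxiredoxin, from 963 to 627 CPM (log2 fold change -0.62 ± 0.10 SE, edgeR adjusted p = 0.0041). Of the windows of Prdx1 22.5% are shared. Gpx4, which reduces lipid peroxides, was higher, from 140.4 to 227 CPM (log2 fold change 0.70 ± 0.17 SE, edgeR adjusted p = 0.024), with 70.3% of its windows shared, and was not called without 0 h replicate 2 or 24 h replicate 1 or 3, with adjusted p from 0.0899 to 0.108.

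Of 19 targets of p53, 9 were lower (5 without 24 h replicate 1 or 3 and under the replicate block) and 2 higher (4 without 0 h replicate 3 and 1 without any 1 of the other libraries). Pmaip1, the BH3-only death gene NOXA, was at 51.8, 45.9 and 24.95 CPM at 0 h and 5.81, 6.98 and 5.77 CPM at 24 h, 6.60-fold lower (log2 fold change -2.72 ± 0.28 SE, edgeR adjusted p = 0.00051). Zmat3, an RNA-binding p53 target, was at 46.6, 42.9 and 37.4 CPM at 0 h and 14.4, 16.5 and 14.3 CPM at 24 h (log2 fold change -1.49 ± 0.13 SE, edgeR adjusted p = 0.00027). The cell cycle inhibitor Cdkn1a was at 66.1, 89.8 and 107 CPM at 0 h and 37.8, 37.3 and 39.5 CPM at 24 h (log2 fold change -1.20 ± 0.18 SE, edgeR adjusted p = 0.0027). All 3 genes were lower in every 24 h library. Mdm2, which degrades p53, went from 215 to 154 CPM (log2 fold change -0.48 ± 0.14 SE, edgeR adjusted p = 0.038; not called without 0 h replicate 2 or 24 h replicate 1, 2 or 3, with adjusted p from 0.0721 to 0.134) and Trp53, which encodes p53, from 138 to 93.7 CPM (log2 fold change -0.56 ± 0.11 SE, edgeR adjusted p = 0.0086). Fas, the death receptor, rose from 0.585 to 1.70 CPM (log2 fold change 1.54 ± 0.29 SE, edgeR adjusted p = 0.0081).

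Interferon-stimulated genes rose. These genes answer type I interferon through factors that bind the interferon-stimulated response element. Of 21 tested 13 were higher (10 to 15 with 1 library left out) and 1 lower, and the median log2 fold change was 0.94. Most were of low level. Isg15, a ubiquitin-like modifier (chr4:156199424-156200818, minus strand), was at 1.18, 1.94 and 1.32 CPM at 0 h and 10.3, 10.3 and 12.5 CPM at 24 h, 7.39-fold higher (log2 fold change 2.88 ± 0.24 SE, edgeR adjusted p = 0.0002). Oasl2, an oligoadenylate synthase-like gene, had the smallest adjusted p of the list, at 8.19, 9.13 and 8.28 CPM at 0 h and 57.5, 53.9 and 55.4 CPM at 24 h (log2 fold change 2.70 ± 0.12 SE, edgeR adjusted p = 1.6e-05). Ifit1, which binds foreign RNA ends, was at 0.992, 1.07 and 0.833 CPM at 0 h and 5.51, 5.29 and 5.24 CPM at 24 h (log2 fold change 2.46 ± 0.22 SE, edgeR adjusted p = 0.00027). The 3 genes had no overlap between groups, and their 24 h libraries lay close together. Irf7, the factor that amplifies interferon production, went from 5.30 to 15.96 CPM (log2 fold change 1.59 ± 0.16 SE, edgeR adjusted p = 0.00051), and Usp18, which removes ISG15, had a log2 fold change of 1.42. Bst2, a surface tether of viruses, was at 38.6, 47.4 and 54.4 CPM at 0 h and 74.8, 66.3 and 93.02 CPM at 24 h (log2 fold change 0.74 ± 0.18 SE, edgeR adjusted p = 0.021), and was not called without 0 h replicate 2 or 24 h replicate 1 or 3, with adjusted p from 0.0667 to 0.0823. Psmb9, a subunit of the immunoproteasome, was the member that fell, from 16.4 to 8.08 CPM (log2 fold change -1.02 ± 0.19 SE, edgeR adjusted p = 0.0066).

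The promoters of this list were searched for that element. The list holds genes known to answer interferon, so an excess of matches is not independent of how its members were chosen. Windows of 250 bases before to 50 after the start, from RefSeq on GRCm38.p6, were found for 17 of the 21 genes and searched on both strands for GAAANNGAAA or its reverse complement TTTCNNTTTC, the core of the interferon-stimulated response element. The letters were present for 10 of the 17 (58.8%), against 3.44% of all 32851 windows and 3.49% of the 12007 tested genes with a window. Of the 10 with a match 7 were called higher, and of the 7 without a match 3 were higher and 1 lower. The windows of Isg15, Ifit1 and Ifitm3 are shown as examples of genes that rose and carry more than 1 match. Matches can overlap, and matched bases are in capitals. Bst2, also called higher, has 2 matches and is not shown. They lie at chr4:156200769-156201068 (minus strand), chr19:34640639-34640938 (plus strand) and chr7:141010695-141010994 (minus strand). A match describes the letters and is not a measured binding site.
Isg15: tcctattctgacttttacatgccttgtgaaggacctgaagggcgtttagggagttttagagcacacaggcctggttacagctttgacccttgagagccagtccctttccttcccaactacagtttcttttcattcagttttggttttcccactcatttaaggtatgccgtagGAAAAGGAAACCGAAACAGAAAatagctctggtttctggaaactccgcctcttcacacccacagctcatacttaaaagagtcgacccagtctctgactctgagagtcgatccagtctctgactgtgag
Ifit1: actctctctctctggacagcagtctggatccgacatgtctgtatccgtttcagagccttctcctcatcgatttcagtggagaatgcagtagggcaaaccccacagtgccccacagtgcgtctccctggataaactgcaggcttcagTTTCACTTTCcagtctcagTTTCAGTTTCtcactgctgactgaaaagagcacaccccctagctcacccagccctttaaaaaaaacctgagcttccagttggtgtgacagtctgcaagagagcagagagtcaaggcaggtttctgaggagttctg
Ifitm3: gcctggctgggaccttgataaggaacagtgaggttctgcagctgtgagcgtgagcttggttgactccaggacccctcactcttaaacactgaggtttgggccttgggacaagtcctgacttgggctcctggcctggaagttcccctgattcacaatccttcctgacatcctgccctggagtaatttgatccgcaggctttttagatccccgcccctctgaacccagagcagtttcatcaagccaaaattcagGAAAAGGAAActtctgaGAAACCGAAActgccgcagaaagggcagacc
The first match of Isg15 starts at -78 and that of Ifit1 at -104, counted in bases from the start with upstream bases negative. That of Ifitm3 starts at 2, so its matches lie after the start. Ifitm3 itself, which blocks virus entry, went from 16.5 to 47.9 CPM (log2 fold change 1.53 ± 0.16 SE, edgeR adjusted p = 0.00058).

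Targets of BMP and activin, ligands that the differentiation medium contains, split in direction: 8 of 20 were higher and 7 lower. Id2, an inhibitor of basic helix-loop-helix factors and a direct BMP target, was among the 12 largest rises under the named-gene rule. It was at 1.30, 0.825 and 0.392 CPM at 0 h and 15.4, 16.8 and 18.6 CPM at 24 h, 20.5-fold higher (log2 fold change 4.36 ± 0.35 SE, edgeR adjusted p = 0.00018). Id1, of the same family, was at 15.1, 19.2 and 19.9 CPM at 0 h and 53.7, 61.5 and 65.7 CPM at 24 h (log2 fold change 1.74 ± 0.15 SE, edgeR adjusted p = 0.00023), and the transcription factor gene Atoh8 at 6.45, 8.25 and 11.1 CPM at 0 h and 25.4, 24.5 and 27.1 CPM at 24 h (log2 fold change 1.57 ± 0.20 SE, edgeR adjusted p = 0.0015). No library of one group reached the other, which for Id2 was a condition of the rule. Pmepa1, which answers TGF-beta type signals, went from 27.4 to 60.2 CPM (log2 fold change 1.14). In the other direction Msx2, a homeobox BMP target, was at 13.8, 13.3 and 17.9 CPM at 0 h and 2.93, 2.22 and 2.21 CPM at 24 h (log2 fold change -2.61 ± 0.21 SE, edgeR adjusted p = 0.00017), Nodal, an activin-like ligand, went from 3.05 to 0.480 CPM (log2 fold change -2.65 ± 0.46 SE, edgeR adjusted p = 0.0051) and Tgif1, a SMAD corepressor, from 23.3 to 5.08 CPM (log2 fold change -2.20 ± 0.15 SE, edgeR adjusted p = 8.4e-05).

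Genes of ligands and antagonists of this family were read in the same libraries. Bmp4 was at 11.4, 13.5 and 10.9 CPM at 0 h and 1.44, 2.01 and 2.26 CPM at 24 h (log2 fold change -2.65 ± 0.22 SE, edgeR adjusted p = 0.00021), and follistatin (Fst), which binds activin, at 23.3, 22.7 and 20.6 CPM at 0 h and 7.59, 7.35 and 8.17 CPM at 24 h (log2 fold change -1.53 ± 0.13 SE, edgeR adjusted p = 0.00021). The activin subunit genes diverged: Inhbb fell from 28.4 to 10.9 CPM (log2 fold change -1.38 ± 0.15 SE, edgeR adjusted p = 0.00068), and Inhba was at 0.434, 0.243 and 0 CPM at 0 h and 7.39, 8.57 and 6.97 CPM at 24 h (log2 fold change 5.12 ± 0.61 SE, edgeR adjusted p = 0.001). Inha, the inhibin alpha subunit made by Sertoli cells, was at 0.930, 0.825 and 0.539 CPM at 0 h and 17.9, 19.7 and 34.1 CPM at 24 h (log2 fold change 4.97 ± 0.35 SE, edgeR adjusted p = 9.9e-05). The Sertoli markers listed above rose with Inha, and their part in this value was not tested.

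In the Notch pathway 7 of 23 genes were lower and 3 higher (1 higher without 24 h replicate 1 or 3, and 5 without 0 h replicate 3). The receptor gene Notch1 (chr2:26457903-26516663, minus strand) was at 200.4, 218 and 239.6 CPM at 0 h and 56.2, 49.2 and 38.7 CPM at 24 h, 4.57-fold lower (log2 fold change -2.19 ± 0.16 SE, edgeR adjusted p = 0.00011). Its ligand gene Jag1 was at 106, 89.8 and 84.9 CPM at 0 h and 41.6, 41 and 32.3 CPM at 24 h (log2 fold change -1.29 ± 0.15 SE, edgeR adjusted p = 0.00083) and the target gene Hes1 at 65.9, 60.5 and 88.4 CPM at 0 h and 33.3, 34.5 and 37.6 CPM at 24 h (log2 fold change -1.03 ± 0.16 SE, edgeR adjusted p = 0.0036). Notch1, Jag1 and Hes1 were each lower in every 24 h library. The list as a whole did not move with them: 13 of the 23 genes had a positive log2 fold change, and the median was 0.14. Dll1, another ligand, rose from a low level, at 0.496, 0.340 and 0.637 CPM at 0 h and 5.56, 4.87 and 6.10 CPM at 24 h (log2 fold change 3.47 ± 0.29 SE, edgeR adjusted p = 0.00021), and overlaps A930024N18Rik over 20.5% of its exonic length.

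Of 13 Hedgehog genes 4 were lower and 4 higher. Gli1 and Ptch1, which the pathway induces, were at 6.14, 7.57 and 7.75 CPM at 0 h and 1.79, 1.38 and 1.59 CPM at 24 h (log2 fold change -2.17 ± 0.22 SE, edgeR adjusted p = 0.00042) and 61.2, 65.3 and 57.1 CPM at 0 h and 26.6, 23.8 and 23.1 CPM at 24 h (log2 fold change -1.32 ± 0.12 SE, edgeR adjusted p = 0.00026). Gli2, the upstream factor, rose, at 1.43, 2.67 and 2.35 CPM at 0 h and 13.2, 11.6 and 7.59 CPM at 24 h (log2 fold change 2.32 ± 0.31 SE, edgeR adjusted p = 0.0016). The count higher was 2 without 0 h replicate 2, 24 h replicate 1 or 24 h replicate 3. For Wnt, 9 of 33 genes were lower and 3 higher (none without 0 h replicate 2, 1 without any 1 of the 24 h libraries, and 5 without 0 h replicate 3). Sp5, a direct Wnt target, was at 48.4, 56.6 and 81.2 CPM at 0 h and 7.84, 6.67 and 6.39 CPM at 24 h, 8.91-fold lower (log2 fold change -3.15 ± 0.22 SE, edgeR adjusted p = 9.6e-05), and the receptor gene Fzd2 at 97.1, 124 and 173 CPM at 0 h and 38.8, 33.7 and 33.8 CPM at 24 h (log2 fold change -1.89 ± 0.21 SE, edgeR adjusted p = 0.00076). The mediator Ctnnb1 (beta-catenin) went from 866 to 548 CPM (log2 fold change -0.66 ± 0.10 SE, edgeR adjusted p = 0.0027) and the secreted binder Sfrp2 from 78.7 to 23.4 CPM (log2 fold change -1.75 ± 0.12 SE, edgeR adjusted p = 7.1e-05). Ctnnb1 has 17.6% of its windows shared and overlaps Ulk4 over 15.1% of its exonic length.

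**Figure D5:**
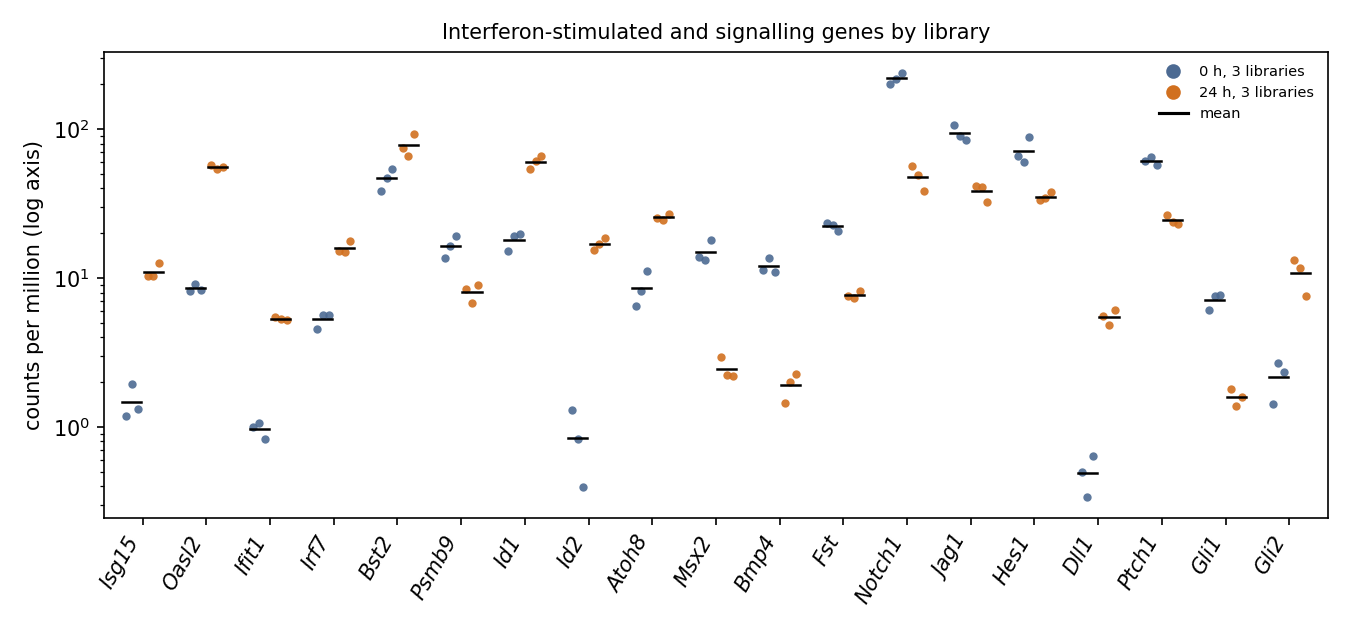
Level of interferon-stimulated genes (Isg15 to Psmb9) and of BMP, Notch and Hedgehog genes (Id1 to Gli2) in each library, in CPM on a log axis, with 3 points per group and a line at the mean. Isg15, Oasl2, Ifit1, Irf7, Bst2, Id1, Id2, Atoh8, Dll1 and Gli2 lie higher at 24 h, and Psmb9, Msx2, Bmp4, Fst, Notch1, Jag1, Hes1, Ptch1 and Gli1 lie lower.

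The 12 steepest falls under the named-gene rule were of genes of several kinds. Mpzl2, an adhesion protein of epithelia (chr9:45039799-45054015), was at 245, 210.0 and 192 CPM at 0 h and 4.12, 5.71 and 4.61 CPM at 24 h, 44.8-fold lower (log2 fold change -5.49 ± 0.18 SE, edgeR adjusted p = 7.4e-06), with 30.7% of its exonic length shared with Gm48840. The ganglioside synthase gene St8sia1 led these 12, from 11.4 to 0.134 CPM (log2 fold change -6.34), while the lowest value over all genes tested was -8.65. Pcdh12, a protocadherin, was at 30.8, 37.1 and 37.5 CPM at 0 h and 0.794, 0.423 and 0.817 CPM at 24 h (log2 fold change -5.67 ± 0.24 SE, edgeR adjusted p = 1.6e-05). Kcnc2, a voltage-gated potassium channel, was at 44.7, 34.7 and 28.4 CPM at 0 h and 0.844, 1.16 and 0.432 CPM at 24 h (log2 fold change -5.47 ± 0.34 SE, edgeR adjusted p = 5.7e-05). In each of them the 24 h level was a few percent of that at 0 h or less. Tmc8, a transmembrane protein, went from 84.6 to 2.20 CPM (log2 fold change -5.26 ± 0.23 SE, edgeR adjusted p = 1.7e-05), Sost, a secreted Wnt and BMP antagonist, from 32.6 to 0.803 CPM (log2 fold change -5.34 ± 0.24 SE, edgeR adjusted p = 1.8e-05) and Map7d3, a microtubule protein, from 10.9 to 0.236 CPM (log2 fold change -5.50 ± 0.60 SE, edgeR adjusted p = 0.00067). Nefm, a neurofilament gene of high level at 0 h, was at 144, 253 and 206 CPM at 0 h and 5.86, 6.14 and 6.44 CPM at 24 h (log2 fold change -5.03 ± 0.24 SE, edgeR adjusted p = 2.1e-05), and 19.2% of its exonic length overlaps Nefl. The transcription factor genes Foxc2, Fev and Zic4 were among the 12 largest falls too, with Foxc2 at 89.1, 109 and 145 CPM at 0 h and 4.27, 3.39 and 3.36 CPM at 24 h (log2 fold change -4.96 ± 0.23 SE, edgeR adjusted p = 2.1e-05), Fev from 18.3 to 0.547 CPM (-5.04 log2) and Zic4 from 12.7 to 0.394 CPM (-4.97 log2).

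The Eph receptor gene Epha2, which reads ephrins on neighbouring cells, was at 345, 383 and 458 CPM at 0 h and 35.7, 30.2 and 33.8 CPM at 24 h, 11.9-fold lower (log2 fold change -3.57 ± 0.15 SE, edgeR adjusted p = 1.6e-05). Ephb1 and Ephb3 were lower too, from 75.6 to 14.7 CPM and 69.03 to 13.6 CPM. Of 56 guidance receptor and ligand genes 14 were lower (9 without 24 h replicate 3) and 14 higher. Slit2, a repellent ligand, rose, at 2.29, 1.75 and 1.62 CPM at 0 h and 12.4, 13.5 and 11.7 CPM at 24 h (log2 fold change 2.74 ± 0.20 SE, edgeR adjusted p = 0.00011). Among cadherin and tight junction genes 12 of 28 were lower and 6 higher (3 higher without 0 h replicate 2 or any 1 of the 24 h libraries). P-cadherin (Cdh3) went from 128 to 22.3 CPM (log2 fold change -2.52 ± 0.14 SE, edgeR adjusted p = 3.8e-05), while Jam2, a junction molecule, rose from 0.699 to 9.06 CPM (log2 fold change 3.68 ± 0.30 SE, edgeR adjusted p = 0.00019). For integrins 6 of 18 were lower and 2 higher (1 without 24 h replicate 1 or 2), with Itgb2, the leukocyte type beta subunit, at 7.19, 8.49 and 9.46 CPM at 0 h and 0.596, 0.370 and 0.384 CPM at 24 h (log2 fold change -4.20 ± 0.27 SE, edgeR adjusted p = 6.7e-05). Among chemokine genes 6 of 13 were higher and 2 lower, and Cxcl12, a homing signal made by stroma and Sertoli cells, rose from 1.86 to 9.32 CPM (log2 fold change 2.32 ± 0.26 SE, edgeR adjusted p = 0.00075).

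Of 40 collagen genes 24 were higher and 8 lower, with a median log2 fold change of 1.13. The fibrillar collagen genes Col1a1 and Col1a2, which make the fibres of connective tissue, gained the most CPM under the named-gene rule, and Col3a1 was among the 8 that gained most. Col1a1 (chr11:94936224-94953042) was at 161, 125 and 178 CPM at 0 h and 1100.1, 1219.9 and 998 CPM at 24 h (log2 fold change 2.84 ± 0.17 SE, edgeR adjusted p = 4.4e-05), Col1a2 at 93.03, 61.9 and 79.9 CPM at 0 h and 633, 743 and 701 CPM at 24 h (log2 fold change 3.15 ± 0.17 SE, edgeR adjusted p = 3.5e-05) and Col3a1 at 37.1, 28.3 and 35.2 CPM at 0 h and 318, 355 and 384 CPM at 24 h (log2 fold change 3.39 ± 0.15 SE, edgeR adjusted p = 1.6e-05). The 24 h libraries lay far above the 0 h libraries for each. Basement membrane collagens Col4a1 and Col4a2 went from 53.3 to 312 CPM and 32.5 to 185 CPM (log2 fold changes 2.55 and 2.51), and Col15a1 from 3.04 to 44.03 CPM (log2 fold change 3.86 ± 0.16 SE, edgeR adjusted p = 1.6e-05). Col13a1, a transmembrane collagen, went the other way, at 85.96, 155 and 149 CPM at 0 h and 5.31, 6.30 and 5.81 CPM at 24 h (log2 fold change -4.49 ± 0.26 SE, edgeR adjusted p = 4.3e-05), and Col18a1, the source of endostatin, fell from 152 to 66.98 CPM (log2 fold change -1.18 ± 0.19 SE, edgeR adjusted p = 0.0041). The stromal markers rose in sum with this list, but Col1a1, Col1a2 and Col3a1 are members that make up most of that sum. The part of the stromal markers in this list was not tested.

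Other matrix genes were higher in 18 of 37 and lower in 6. Sparc, a matricellular protein, rose from 45.7 to 296 CPM (log2 fold change 2.70 ± 0.17 SE, edgeR adjusted p = 5.6e-05) and lysyl oxidase (Lox), which crosslinks collagen, from 37.1 to 157 CPM (log2 fold change 2.09 ± 0.37 SE, edgeR adjusted p = 0.0057). Nidogens, which link laminin to collagen IV, fell: Nid2 was at 682, 738 and 755 CPM at 0 h and 238, 230.5 and 208 CPM at 24 h (log2 fold change -1.68 ± 0.11 SE, edgeR adjusted p = 6.1e-05) and Nid1 went from 344 to 72.3 CPM (log2 fold change -2.25 ± 0.11 SE, edgeR adjusted p = 2.6e-05). The gelatinase Mmp9 fell from 53.1 to 15.8 CPM (log2 fold change -1.75 ± 0.13 SE, edgeR adjusted p = 0.00012).

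The remaining genes of the 12 largest rises included several known from somatic cells. The protease-like gene Prss35 led the 12 of the named-gene rule, from 0.559 to 39.8 CPM (log2 fold change 6.14). The largest value over all genes tested was 9.37, for Hsd3b1. This gene had no count at 0 h, so that value is not a measured ratio. Against a floor of 3 counts per library at 0 h, it was 26.6-fold higher. The mean of Hsd3b1 at 24 h, 4.25 CPM, was below the 10 CPM of the rule. Acta2, smooth muscle actin, was at 1.86, 1.46 and 2.55 CPM at 0 h and 82.7, 96.9 and 112 CPM at 24 h, 49.6-fold higher (log2 fold change 5.63 ± 0.24 SE, edgeR adjusted p = 1.6e-05). Cyp11a1, which makes pregnenolone from cholesterol in steroid-making cells, was at 0.682, 0.534 and 0.245 CPM at 0 h and 15.7, 23.8 and 22.6 CPM at 24 h (log2 fold change 5.42 ± 0.34 SE, edgeR adjusted p = 6.1e-05). Igfbp7, a secreted IGF binder, was at 4.34, 4.47 and 5.78 CPM at 0 h and 65.2, 85.1 and 82.2 CPM at 24 h (log2 fold change 3.99 ± 0.18 SE, edgeR adjusted p = 2e-05). All had at most a few CPM at 0 h. Gstm2, a glutathione transferase, Ccn4, a matricellular Wnt target, and Ltbp4, a TGF-beta binder of elastic fibres, rose from 0.522 to 12.8 CPM, 0.710 to 14.2 CPM and 1.44 to 22.9 CPM. Gfra3, the artemin receptor, went from 1.33 to 18.8 CPM (log2 fold change 3.83 ± 0.23 SE, edgeR adjusted p = 4.9e-05) and the homeobox gene Nkx1-1 from 0.773 to 13 CPM (log2 fold change 4.05 ± 0.32 SE, edgeR adjusted p = 0.00016). The peritubular myoid and Leydig markers, to which Acta2 and Cyp11a1 belong, rose in sum with them, and their part was not tested.

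Among genes that gained the most CPM were several that are read at high level at both times. Ehmt2 (G9a), a histone H3K9 methyltransferase, was at 281, 379 and 463 CPM at 0 h and 992, 893 and 948 CPM at 24 h (log2 fold change 1.33 ± 0.18 SE, edgeR adjusted p = 0.0019). Rab11fip4, a recycling endosome adaptor, was at 114, 145 and 157 CPM at 0 h and 727, 639 and 651 CPM at 24 h (log2 fold change 2.28 ± 0.15 SE, edgeR adjusted p = 6.4e-05). Zmym3, a zinc finger protein of histone deacetylase complexes, was at 133, 133 and 141 CPM at 0 h and 548, 503 and 483 CPM at 24 h (log2 fold change 1.91 ± 0.10 SE, edgeR adjusted p = 3e-05). Ndrg4 was at 80.9, 85.8 and 86.4 CPM at 0 h and 439, 412 and 397 CPM at 24 h (log2 fold change 2.30 ± 0.10 SE, edgeR adjusted p = 1.6e-05). Non-overlap between groups was a condition of the rule that chose these genes. Their rises passed in every alternative.

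Chromatin and small RNA genes moved gene by gene. Of 17 DNA methylation genes 4 were higher and 2 lower. Tet3, which oxidises methylcytosine, was at 69.03, 78.7 and 62.6 CPM at 0 h and 252, 228 and 189 CPM at 24 h (log2 fold change 1.67 ± 0.15 SE, edgeR adjusted p = 0.00025), and Uhrf1, which recruits DNMT1 to replicated DNA, at 929.8, 976 and 1121 CPM at 0 h and 611, 560.3 and 573 CPM at 24 h (log2 fold change -0.79 ± 0.11 SE, edgeR adjusted p = 0.0023). Mbd3, of the NuRD complex, rose from 61.8 to 128 CPM (log2 fold change 1.05 ± 0.20 SE, edgeR adjusted p = 0.0081). In the piRNA pathway, which silences transposons in germ cells, 5 of 25 were higher and 4 lower. Pld6, a nuclease of piRNA processing on mitochondria, was at 7.26, 8.40 and 10.8 CPM at 0 h and 33.7, 36.3 and 34.1 CPM at 24 h (log2 fold change 1.97 ± 0.17 SE, edgeR adjusted p = 0.00022), and Piwil2, a PIWI protein, at 506, 478 and 557 CPM at 0 h and 855, 799 and 786 CPM at 24 h (log2 fold change 0.66 ± 0.11 SE, edgeR adjusted p = 0.0039). Fkbp6 rose from 253 to 395 CPM (log2 fold change 0.64 ± 0.11 SE, edgeR adjusted p = 0.0043), while Tdrd6, a tudor protein of the chromatoid body, was at 22.5, 18.9 and 19.7 CPM at 0 h and 2.18, 2.80 and 2.21 CPM at 24 h (log2 fold change -3.08 ± 0.17 SE, edgeR adjusted p = 3.8e-05).

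Among the cell cycle lists the share called was 8.57% for mitosis, 21.6% for DNA replication and 52.9% for G1 genes, against 25.5% of all genes tested. Of 35 mitosis genes 2 were lower and 1 higher, with 7 higher without 0 h replicate 1 and 4 without 0 h replicate 3. Of 37 DNA replication genes 7 were lower (4 without 24 h replicate 2, 11 with all 9 libraries) and 1 higher (4 without 0 h replicate 3), with a median log2 fold change of -0.09 that turned to 0.02 when scaled by library size alone. Rrm2, of ribonucleotide reductase, went from 138 to 76.9 CPM (log2 fold change -0.84 ± 0.10 SE, edgeR adjusted p = 0.00094), with 20% of its windows shared. Among 17 G1 cyclins and CDK inhibitors 7 were lower and 2 higher (1 without 0 h replicate 2 or any 1 of the 24 h libraries): the kinase gene Cdk4 went from 293 to 149 CPM (log2 fold change -0.97 ± 0.13 SE, edgeR adjusted p = 0.0018), Ccnd3, a D cyclin, from 181 to 109.8 CPM (log2 fold change -0.72 ± 0.13 SE, edgeR adjusted p = 0.0056) and the inhibitor gene Cdkn1b was at 20.5, 18.4 and 15.4 CPM at 0 h and 4.62, 6.30 and 7.54 CPM at 24 h (log2 fold change -1.55 ± 0.21 SE, edgeR adjusted p = 0.0019). Cdk6, the partner kinase of Cdk4, rose from 33.7 to 62.9 CPM (log2 fold change 0.90 ± 0.15 SE, edgeR adjusted p = 0.0049). The value of Cdk4 is uncertain, with 28.75% of its windows shared and 19.7% of its exonic length overlapping Tspan31.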

How the data were processed

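The authors sequenced RNA from EGFP-SSC cultures and deposited read counts per gene for each library. The submitters' processing notes name fastp, HISAT2, featureCounts and GRCm38. Versions, annotation release, strand and multi-mapping settings are not given in the sources used here, so reads of overlapping or antisense genes cannot be told apart. The deposited counts are whole numbers for 46078 Ensembl identifiers, 45229 of them found in GENCODE M21 (GRCm38), which gave symbols and coordinates.

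Libraries were grouped by their labels. Genes were filtered with filterByExpr, scaled by trimmed means of M values and tested two-sided with edgeR 4.0.16 (quasi-likelihood; R 4.3.3). P-values were adjusted by Benjamini-Hochberg over 17592 genes, with a threshold of 0.05. The test was checked on simulated counts with the same dispersion in both groups, which does not cover the wider spread between replicates at 0 h. Replicates were labelled as biological replicates of 1 line, so p-values measure the spread between these cultures.

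Genes and lists were chosen with earlier results of these data known, and lists have counts and medians but no test. Named genes were first taken from called genes without overlap between groups that reached 10 CPM on average in either group, without predicted genes and without stem cell, differentiation, ERK and retinoic acid markers: the 12 steepest rises and falls, and the 8 largest by CPM. List members and cell type markers were added. Shared sequence is the share of 75-base windows, 25 bases apart, of the longest transcript that matched another gene at 97% identity (BLAST 2.17.0). Overlaps came from bedtools 2.31.1. Some items are not reported here. Promoter windows on chromosome 18 were left out, and motifs were chosen after values were seen. Alternatives were DESeq2 1.42.0, its size factors in edgeR, library size alone, no filter, a minimum of 10 counts per library, a fit of all 9 libraries, a replicate block, GC and length offsets, and leaving out each library in turn.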

Additional observations from a re-analysis of the deposited data

How the results depend on the processing

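The 4494 genes called became 4732 with DESeq2 (4327 of them shared), 4442 with its size factors, 4802 by library size alone, 4270 with no filter, 4088 with at least 10 counts in every library, 5751 with all 9 libraries and 6369 with GC and length offsets (3212 higher). Leaving out 1 library gave 2607 to 6023 calls, 1071 to 3070 higher and 1507 to 2953 lower; the highest came without 0 h replicate 3 and counts of 2931 or less without 0 h replicate 2 or any 1 of the 24 h libraries. Only 2326 calls reached 2-fold. With a replicate block 3007 were called, 1256 of them higher and 2992 shared with the fit without it. Deviations of same-numbered libraries correlated at -0.28, 0.02 and -0.09, and those of differently numbered libraries at -0.21 to 0.30. Deviations from a mean of 3 libraries constrain each other, so these values cannot settle whether same-numbered libraries were paired. The cause of these shifts was not tested.

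The called genes named in the text and followed through the alternatives were 165, without Hsd3b1, Hoxd8 and Hoxd9. Of these 165 genes 147 were called under every alternative that tested them. The other 18 lost the call when 1 library or another was left out. Some genes were not tested in every alternative. Amh, with 4, 0 and 3 counts at 0 h, did not enter the fit with at least 10 counts in every library. Of those 18 the call was also lost for 5 by library size alone, 7 under the replicate block, 2 with at least 10 counts in every library, 2 with no filter and 1 with DESeq2. The 3 genes whose sign turned were not called: with 1 library left out the log2 fold change of Fasn ran from -0.066 to 0.13, that of Ddx4 from -0.22 to 0.25 and that of Dazl from -0.55 to 0.24. With 3 libraries a group and a biological coefficient of variation of 0.22, modest differences of genes with low counts may not have been detectable.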

Other observations

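Potassium channels and imprinted genes held more calls than the 25.5% of all genes tested. Of 58 potassium channel genes 13 were lower (7 of the 42 with at least 10 counts in every library) and 8 higher, with 4 to 11 higher when 1 library was left out (4 without 24 h replicate 1 or 3 and 5 without 24 h replicate 2). Kcnt1, a sodium-activated channel, rose, at 5.52, 5.34 and 4.41 CPM at 0 h and 38.7, 34.7 and 32.5 CPM at 24 h (log2 fold change 2.79 ± 0.15 SE, edgeR adjusted p = 3e-05). Of 37 imprinted genes, which are expressed from 1 parental copy, 11 were lower and 2 higher, with 5 to 6 lower without 0 h replicate 2 or any 1 of the 24 h libraries. Mest went from 36.7 to 6.76 CPM and Igf2, a fetal growth factor, from 97.3 to 41.7 CPM (log2 fold changes -2.44 and -1.22), and both overlap other genes, Mest over 23.1% of its exonic length with Copg2 and Igf2 over 64.5% with Gm49394.

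Hox genes were near the limit of the filter. Of 14 tested 6 were higher and 2 lower, with 1 higher among those with at least 10 counts in every library and 13 higher in the fit of all 9 libraries. The 6 that rose reached means of 1.23 CPM (Hoxd9) to 3.95 CPM (Hoxd8) at 24 h. Hoxc13 fell, at 8.43, 8.88 and 8.92 CPM at 0 h and 1.74, 1.38 and 1.59 CPM at 24 h (log2 fold change -2.48 ± 0.19 SE, edgeR adjusted p = 0.00014). Nr5a2, a nuclear receptor of early embryo and steroid-making cells, fell from 35.9 to 5.86 CPM (log2 fold change -2.61 ± 0.18 SE, edgeR adjusted p = 7.6e-05). Nr2f2 (COUP-TFII), a nuclear receptor of stromal cells, rose from 0.388 to 4.96 CPM (log2 fold change 3.66 ± 0.28 SE, edgeR adjusted p = 0.00014) beside the stromal markers, whose part in this was not tested. Kif3c, a kinesin motor subunit, fell from 129 to 38.1 CPM (log2 fold change -1.75 ± 0.13 SE, edgeR adjusted p = 0.00013), with 42.8% of its windows shared and 40.7% of its exonic length overlapping 1110002L01Rik. Among 36 kinesin genes 5 were lower and 7 higher, with 2 to 3 higher without 0 h replicate 2 or any 1 of the 24 h libraries.

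Other families held fewer calls than all genes tested. Clustered histone genes had 2 of 43 called, both lower (none without 24 h replicate 3, and 2 also higher without 0 h replicate 3). Zfp genes had 22 of 357 lower and 20 higher, with 12 to 39 lower and 10 to 47 higher when 1 library was left out. Proteasome subunits had 7 of 38 lower and 1 higher (4 higher without 0 h replicate 3), with 3 to 4 lower without 0 h replicate 2, 24 h replicate 1 or 24 h replicate 2. Heat shock genes had 1 of 14 each way.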
